A study of Mus musculus with 124 samples.

Results

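B cells were compared with monocytes in the samples that carry the treatment label CBM. The members are the 26 columns of the count table whose names end in CBM1 to CBM13, 13 of B cells and 13 of monocytes, out of 124 libraries in the table. Each CBM number has 1 library of either cell type, and the number entered the comparison as a block. The series looks in blood RNA of mice for markers shared by prenatal alcohol exposure and maternal diabetes, and sorted T cells, B cells and monocytes by flow cytometry. For the alcohol model, CD1 mice, an outbred stock, received 25% ethanol in PBS by intraperitoneal injection at 4.0 g/kg on embryonic days 16 and 17. For the diabetes model, dams received streptozotocin in citrate buffer at 150 mg/kg by the same route, and blood was taken on postnatal days 35 to 40. The labels do not say what CBM stands for or which model it belongs to. B cells and monocytes of CBM share this treatment label, the source peripheral blood mononuclear cells and batch 2. The B cells and monocytes of CBM numbers 1 to 8 are labelled female and those of 9 to 13 male, while the T cell library of number 9, not used here, is labelled female and had sex genes of a male. The labels give no sort markers or gates, and they do not say whether a number is 1 animal or a pool, so p-values measure the spread between these samples only. The contrast was repeated in PBS, a label of batch 1, with 8 samples of B cells and 8 of monocytes.

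A B cell recognises antigen with a membrane immunoglobulin that signals through the paired chains CD79A and CD79B, and it presents peptides on MHC class II. The factors EBF1, PAX5 and SPIB and the coactivator OBF1 (gene Pou2af1) help to set and keep B cell identity, and OBF1 works with octamer binding factors on immunoglobulin genes. Monocytes arise under the control of PU.1 (gene Spi1) and C/EBP factors, depend on the receptor CSF1R, and circulate as a classical LY6C-high, CCR2-positive kind and a nonclassical LY6C-low, CX3CR1-high kind. They carry phagocytic receptors, lysosomal proteases and the lysozyme encoded by Lyz2.

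Promoters of 6 genes named below are shown because octamer, EBF, C/EBP and PU.1 motifs mark the factors of the 2 lineages. Octamer and EBF motifs are counted here for B cells, and C/EBP and PU.1 motifs for monocytes, although B cells also use PU.1. By that count each of these 6 windows holds a motif of the lineage in which its gene was higher. They are examples only and do not show how often such a match occurs, and named genes with the opposite match are given below. Each window runs from 250 bases before to 50 bases after the annotated start, on the gene's strand, in RefSeq sequence of GRCm38.p6. Capitals mark matches, on either strand, to the octamer ATTTGCAT, the EBF motif CCCNNGGGA, the C/EBP motif TTGCNNAA or the PU.1 motif GAGGAAG. Vpreb3, Cnp and H2-DMb2 were higher in B cells, and Clec12a, Tlr13 and Tnfrsf1b were lower in B cells.
Vpreb3 (chr10:75948050-75948349, plus strand): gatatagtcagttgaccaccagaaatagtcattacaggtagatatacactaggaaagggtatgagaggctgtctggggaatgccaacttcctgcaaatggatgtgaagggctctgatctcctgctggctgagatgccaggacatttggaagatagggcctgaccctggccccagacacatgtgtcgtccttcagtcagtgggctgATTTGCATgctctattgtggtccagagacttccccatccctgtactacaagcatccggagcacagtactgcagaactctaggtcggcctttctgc
Cnp (chr11:100574689-100574988, plus strand): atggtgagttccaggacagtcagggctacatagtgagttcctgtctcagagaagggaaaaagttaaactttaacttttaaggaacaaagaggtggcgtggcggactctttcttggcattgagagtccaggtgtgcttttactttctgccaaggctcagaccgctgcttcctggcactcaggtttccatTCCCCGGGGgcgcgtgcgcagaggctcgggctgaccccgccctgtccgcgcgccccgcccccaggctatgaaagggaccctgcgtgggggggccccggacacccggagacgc
H2-DMb2 (chr17:34144999-34145298, plus strand): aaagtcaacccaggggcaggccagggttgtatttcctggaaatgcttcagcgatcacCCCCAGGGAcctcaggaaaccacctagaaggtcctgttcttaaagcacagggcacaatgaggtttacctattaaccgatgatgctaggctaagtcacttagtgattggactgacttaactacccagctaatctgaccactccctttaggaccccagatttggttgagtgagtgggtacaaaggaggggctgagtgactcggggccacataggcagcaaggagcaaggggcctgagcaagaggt
Clec12a (chr6:129349994-129350293, plus strand): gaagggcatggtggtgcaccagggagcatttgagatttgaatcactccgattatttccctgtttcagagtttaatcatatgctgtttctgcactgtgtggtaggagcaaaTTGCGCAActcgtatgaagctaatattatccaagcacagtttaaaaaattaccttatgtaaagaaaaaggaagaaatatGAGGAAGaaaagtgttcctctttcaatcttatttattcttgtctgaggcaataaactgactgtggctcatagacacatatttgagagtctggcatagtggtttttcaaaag
Tlr13 (chrX:106143025-106143324, plus strand): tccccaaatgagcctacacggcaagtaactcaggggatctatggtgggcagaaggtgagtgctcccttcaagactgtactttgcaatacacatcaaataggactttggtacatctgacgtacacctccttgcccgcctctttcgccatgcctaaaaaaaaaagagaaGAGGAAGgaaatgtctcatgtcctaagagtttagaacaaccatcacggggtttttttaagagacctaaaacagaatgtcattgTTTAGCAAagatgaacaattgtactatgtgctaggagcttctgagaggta
Tnfrsf1b (chr4:145246821-145247120, minus strand): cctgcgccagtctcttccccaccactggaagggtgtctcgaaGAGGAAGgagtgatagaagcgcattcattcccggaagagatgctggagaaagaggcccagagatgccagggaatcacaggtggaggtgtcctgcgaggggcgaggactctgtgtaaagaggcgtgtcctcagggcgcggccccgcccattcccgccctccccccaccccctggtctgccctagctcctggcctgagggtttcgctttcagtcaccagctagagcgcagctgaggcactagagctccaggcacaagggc

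The Vpreb3 window holds an octamer, and those of Cnp and H2-DMb2 hold an EBF match each. The Clec12a window holds the palindrome TTGCGCAA and a PU.1 match, Tlr13 holds both motifs as well, and Tnfrsf1b holds a PU.1 match. Over all 32851 promoters of the RefSeq table, 1.74% held an octamer, 6.56% an EBF match, 10.8% a C/EBP match and 13.6% a PU.1 match. Over the 12622 promoters of genes tested the shares were 1.3%, 7.76%, 8.57% and 13.9% for the same motifs. Among the 901 promoters of genes beyond 2-fold higher in B cells (the call is defined below), octamers stood in 2.33% and EBF matches in 10.2%. Among the 1752 promoters of genes beyond 2-fold lower in B cells, the shares were 1.14% and 10.0%. C/EBP matches stood in 8.66% of the promoters of genes higher in B cells and in 10.2% of those of genes lower in B cells. PU.1 matches stood in 14.9% and 18.8% in the same order. These shares are descriptions without a test. Spib, Pou2af1, Gga2, Rpia, Pgls and Tgfbr2, all higher in B cells, had a C/EBP match in their windows. Alas2, Pkig, Tgfbr2, Csk and Tlr1, also higher in B cells, had a PU.1 match. An octamer stood in Il1rn, and EBF matches in Il1b, Hexa, Lipa, Il6ra and S1pr5, all of them lower in B cells.

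Each of the 26 CBM libraries matched its label by cell type markers and by Xist against the summed Y-linked genes. Levels are given as CPM, counts scaled to library size, after TMM scaling (scaled CPM). Log2 differences are B cells minus monocytes and stand with their SE over 13 pairs, and their p-values come from the quasi-likelihood test of edgeR with Benjamini-Hochberg adjustment over all genes tested. Cd79a, which encodes the CD79A chain (ENSMUSG00000003379, chromosome 7, 24897381 to 24902197, GRCm38), was at 2384 to 4587 (median 3404) scaled CPM in B cell libraries, against 0.981 to 20.2 (median 6.88) in monocyte libraries. Lyz2 (ENSMUSG00000069516, chromosome 10, 117277331 to 117282321) was at 232 to 1792 (median 931) scaled CPM in B cell libraries, against 20748 to 45573 (median 38975) in monocyte libraries. Both genes separated the groups without overlap, and neither was at 0 in the other cell type. Total counts were 2041845 to 6885663 (median 4068690) in B cell libraries and 2104075 to 7327183 (median 6053373) in monocyte libraries. B cell libraries had fewer counts in 9 of 13 pairs (adjusted p = 0.0168, exact two-sided paired permutation test over 13 pairs, adjusted over 14 measures).

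The libraries also differed in make-up. Immunoglobulin genes held 2.42 to 3.58% (median 2.90%) of the counts in B cell libraries and 0.0412 to 0.614% (median 0.203%) in monocyte libraries, with no overlap (adjusted p = 0.00057 by the same exact permutation test). Ribosomal protein genes held 2.35 ± 0.58% of the counts in B cell libraries and 1.42 ± 0.62% in monocyte libraries (SD, n = 13 each, adjusted p = 0.00608, exact permutation test). The 10 most abundant genes of a library took a smaller share of its counts in B cells, at 7.79 ± 1.21%, than in monocytes, at 10.1 ± 3.69% (adjusted p = 0.00555, exact permutation test). The difference was -2.29 percentage points, and -1.25 without CBM11, whose monocyte library stood at 21.6%. Mitochondrially encoded genes held 1.66 ± 0.52% in B cells and 0.974 ± 0.973% in monocytes, with adjusted p = 0.0452 by the exact permutation test, a call that was lost when any number other than 11 was left out. The monocyte library of CBM11 stood apart on the third principal component, and it had the fewest genes at 1 CPM or more (12314) and the highest mitochondrial share (4.11%) of the monocyte libraries. Without CBM11, 1111 genes were beyond 2-fold higher in B cells and 1980 were lower, against 1111 and 1851 with it.

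Markers of other blood cells moved with the contrast. All 14 natural killer cell markers were lower in B cells, and their summed level was 26.03 to 141 (median 50.1) scaled CPM in B cell libraries, against 2619 to 12258 (median 3699) in monocyte libraries. All 10 neutrophil markers tested, of 11 listed, were lower in B cells, with a sum of 38.6 to 453.8 (median 102) in B cell libraries and 1548 to 25069 (median 5270) in monocyte libraries. These 2 sums differed in 13 of 13 pairs without overlap (adjusted p = 0.00057 each, exact permutation test). T cell markers summed to 102 to 176 scaled CPM in B cell libraries and 211 to 1255 in monocyte libraries, and 9 of 14 tested were lower in B cells (29% over all genes tested). Cd3e, an invariant chain that T cells require for their receptor, was not among them, at 1.86 to 16.5 (median 6.68) scaled CPM in B cell libraries and 1.72 to 39.4 (median 6.33) in monocyte libraries (log2 difference -0.03 ± 0.33). Other chains of that receptor complex were lower in B cells, Cd247 with a log2 difference of -2.27 ± 0.17 and Cd3g with one of -0.93 ± 0.32. Of 5 dendritic cell markers tested, 2 were lower in B cells (29% over all genes tested), Clec10a and Cd209a, and 3 did not pass. Among those 3 was Zbtb46, a factor of classical dendritic cells, with a log2 difference of -0.86 ± 0.42 (adjusted p = 0.0882). Basophil and eosinophil markers summed to 2.57 to 25.6 scaled CPM in B cell libraries and 16.7 to 701.9 in monocyte libraries. The eosinophil peroxidase gene Epx was below the filter on low counts. It was at 0 in 9 of 13 B cell libraries and in 3 of 13 monocyte libraries, where its median was 0.845 scaled CPM. Of the defining markers above, Klre1 was at 0 in 6 B cell libraries, Fasl in 4 and Ly6g in 2. None of the 9 platelet markers passed in edgeR, DESeq2 or limma voom (in edgeR 0 also at an unadjusted p under 0.05, and the lowest adjusted p, 0.336, for Itga2b), and their sum did not separate the groups (adjusted p = 0.388, exact permutation test). All 5 red cell markers tested were higher in B cells (1 of 6 tested in the 5 male numbers alone), with Alas2, the first enzyme of erythroid haem synthesis, at 70.01 to 549.8 (median 156) scaled CPM in B cell libraries and 24.7 to 223 (median 61.9) in monocyte libraries. What part these cells have in the gene results below was not tested, and in bulk samples fewer cells of a type and less RNA per cell cannot be told apart.

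**Figure D1:**
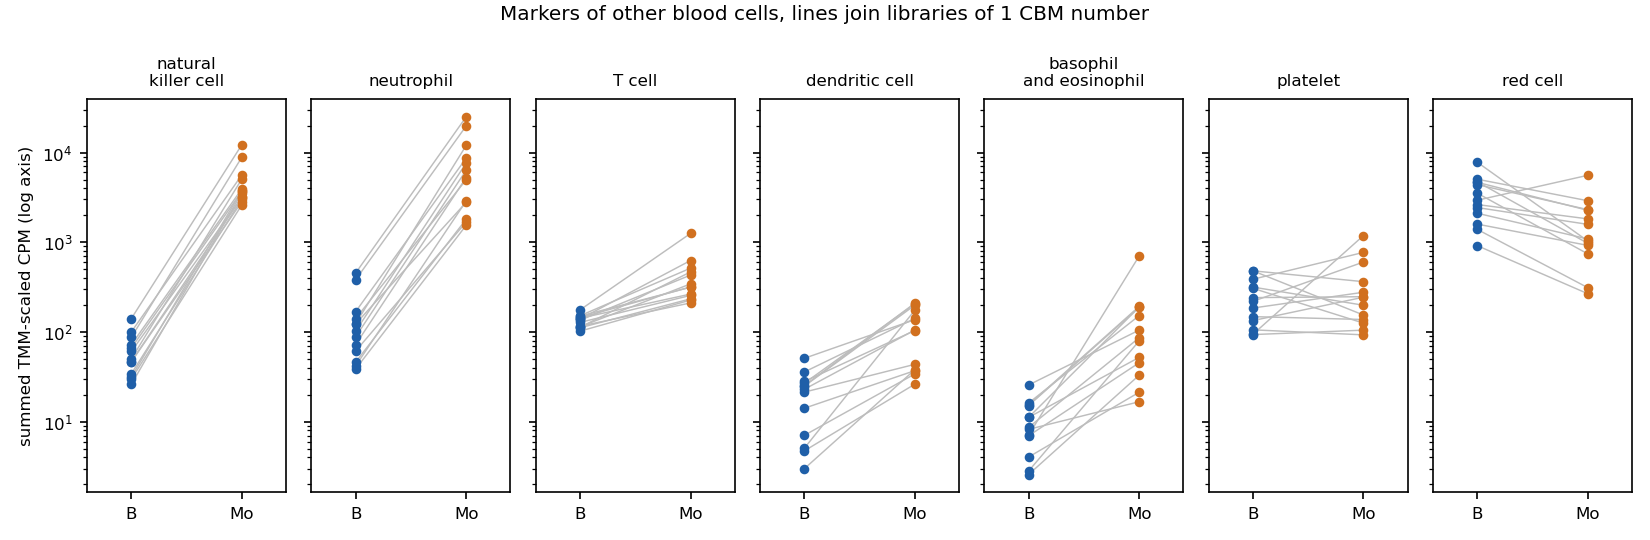
Summed TMM-scaled CPM (log axis) of 7 marker lists in the 13 B cell libraries (B, left) and the 13 monocyte libraries (Mo, right), with a line for each CBM number. Natural killer cell and neutrophil sums lie lower in B cells in 13 of 13 pairs, platelet sums cross in both directions, and red cell sums lie higher in B cells in 12 of 13 pairs.

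Of 14095 genes tested, 4079 (28.9%) were higher in B cells and 4094 (29%) were lower, at an adjusted p under 0.05. A stricter call, which needs a log2 difference beyond 1 in size and is called beyond 2-fold here, was met by 1111 genes (7.88%) higher in B cells and 1851 (13.1%) lower. Counts of list members above and below are to be read beside these shares over all genes tested. The median log2 difference of all genes tested was 0.11. Under upper quartile scaling that median was 0.30, and 60.3% of the calls were higher in B cells, against 49.9% in the fit reported. In 1964 genes (13.9%) the 13 B cell libraries and the 13 monocyte libraries did not overlap, 710 of them higher in B cells and 1254 lower. Most genes named here were picked for a low p in this contrast, which favours genes without overlap. Estimated differences above 32-fold were found for 142 genes higher in B cells and 159 lower. A further 5922 genes (42%) passed in neither direction, and for 1651 genes the 95% interval of the log2 difference lay within 0.5 either side of 0.

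**Figure D2:**
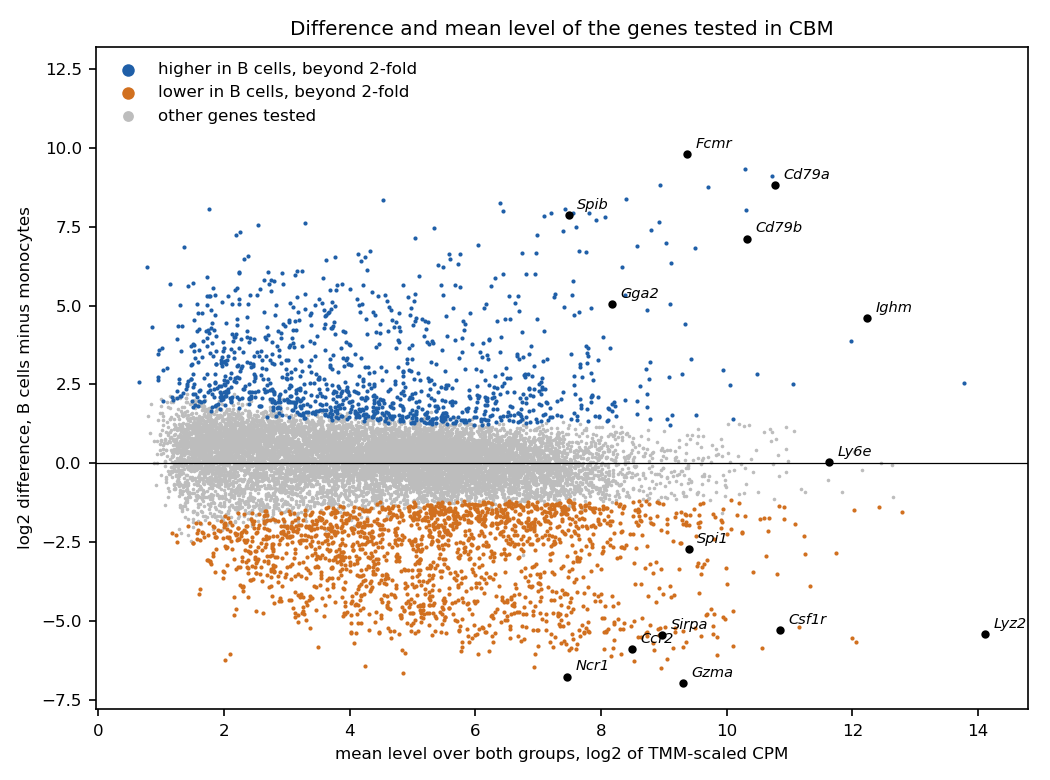
Log2 difference (B cells minus monocytes) against the mean level (log2 of TMM-scaled CPM) of the 14095 genes tested. Blue points are the 1111 genes beyond 2-fold higher in B cells, orange points the 1851 lower, grey points the rest, and black points are named; Spib and Fcmr lie near the top and Gzma and Ncr1 near the bottom.

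Predicted genes, pseudogenes, immunoglobulin and T cell receptor gene segments and second IDs of a symbol were left out of rankings over all genes. Among the rest, Spib, a factor of the ETS family that mature B cells use, had the lowest p of the genes higher in B cells (ENSMUSG00000008193, chromosome 7, 44525993 to 44532071). It was at 202 to 565 (median 330.3) scaled CPM in B cell libraries, against 0.473 to 2.80 (median 1.33) in monocyte libraries, a log2 difference of 7.86 ± 0.24 (SE, adjusted p = 6.31e-14). Fcmr, the receptor for IgM, was at 989 to 1729.7 (median 1276) scaled CPM in B cell libraries, against 0 to 3.78 (median 1.47) in monocyte libraries (log2 difference 9.80 ± 0.37, adjusted p = 4.07e-13). Both were high in every B cell library, and 2 monocyte libraries had no Fcmr count. Gga2, an adaptor of transport from the Golgi, was at 299 to 687 (median 559) scaled CPM in B cell libraries and 9.30 to 26.4 (median 17.1) in monocyte libraries (log2 difference 5.05 ± 0.16, adjusted p = 7.29e-14). Smaller differences were those of Cnp, a phosphodiesterase known best from myelin, of Grap, an adaptor of receptor signalling, and of Swap70, an actin binding protein of activated B cells. Their log2 differences were 2.74 ± 0.10, 3.65 ± 0.13 and 3.001 ± 0.11. Ralgps2, an exchange factor for RAL proteins, had a log2 difference of 4.80 ± 0.19, Pxk, a kinase-like protein, of 2.65 ± 0.11, and Pkig, an inhibitor of protein kinase A, of 2.36 ± 0.10. The B cell and monocyte libraries did not overlap in any of these 9 genes.

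The B cell receptor and its signalling chain were the first list. Of 24 genes tested, 18 were higher in B cells and 4 were lower, 12 were beyond 2-fold higher and 0 beyond 2-fold lower, and the list median was 1.48 against 0.11 for all genes. Cd79b, the partner of Cd79a, was at 1790.4 to 3415 (median 2400.0) scaled CPM in B cell libraries, against 8.98 to 41.6 (median 15.8) in monocyte libraries (log2 difference 7.12 ± 0.26, adjusted p = 2.48e-13), and Cd79a had a log2 difference of 8.83 ± 0.38 (adjusted p = 1.53e-12). Cr2, a complement receptor of B cells, was at 163 to 425 (median 343) scaled CPM in B cell libraries and 0.332 to 6.64 (median 1.96) in monocyte libraries (log2 difference 7.37 ± 0.35). No monocyte library reached the lowest B cell library in these 3 genes. The kinases and adaptors used by both lineages were closer. Syk and Btk, the tyrosine kinases downstream of the receptor, had log2 differences of 0.86 ± 0.11 and 1.11 ± 0.11, and Blnk, the adaptor specific to B cells, of 6.73 ± 0.36. Lyn, a Src family kinase that signals in myeloid cells too, was lower in B cells in 13 of 13 pairs, at 326 to 669.5 (median 518) scaled CPM in B cell libraries and 588 to 1258 (median 967) in monocyte libraries (log2 difference -0.90 ± 0.08, adjusted p = 3.33e-08), with overlapping ranges. Bcl10 and Plcg2, which relay the signal to NF-κB and calcium, were lower with log2 differences of -0.34 ± 0.09 and -0.34 ± 0.10, and neither passed under upper quartile scaling (adjusted p = 0.148 and 0.165).

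Of the 12 immunoglobulin constant region genes, 10 passed the filter on low counts, 9 were higher in B cells and 1 was lower. Ighd, the constant region of IgD on naive B cells, was at 2663 to 4407 (median 3419.8) scaled CPM in B cell libraries, against 1.47 to 19.9 (median 6.03) in monocyte libraries (log2 difference 9.09 ± 0.33, adjusted p = 2.39e-13). Ighm, that of IgM, was at 5276 to 13727 (median 9197) scaled CPM in B cell libraries and 187 to 709 (median 365) in monocyte libraries (log2 difference 4.59 ± 0.25, adjusted p = 3.42e-11). Both were separated without overlap, and Ighm was well above 0 in every monocyte library. Of the light chains, Iglc3 was at 615 to 1385 (median 914) scaled CPM in B cell libraries and 1.42 to 15.98 (median 4.65) in monocyte libraries (log2 difference 7.40 ± 0.35), and Igkc at 5413 to 8680.2 (median 6995) and 67.8 to 2213 (median 594) in the same order (log2 difference 3.89 ± 0.45). Ighg3, a switched isotype, was at 5.47 to 43.9 (median 21.6) scaled CPM in B cell libraries and 0 to 0.737 (median 0.280) in monocyte libraries (log2 difference 6.45 ± 0.35). Igha, the constant region of IgA that mucosal plasma cells secrete, went the other way: it was at 43.8 to 333 (median 157) scaled CPM in B cell libraries and 63.8 to 2117 (median 712) in monocyte libraries (log2 difference -1.85 ± 0.60, adjusted p = 0.0139), lower in B cells in 9 of 13 pairs, with overlapping ranges. It did not pass in the 8 female numbers alone (-1.13, adjusted p = 0.1). Counts of the closely similar heavy and lambda chain genes may be shared between them and are uncertain one by one.

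Of 8 genes of plasma cells tested, the antibody secreting stage, 3 were higher in B cells and 3 were lower, shares near those over all genes (28.9% and 29%). Mzb1, a chaperone of IgM assembly, was at 190.1 to 332 (median 242) scaled CPM in B cell libraries and 1.99 to 43.8 (median 18.7) in monocyte libraries (log2 difference 4.19 ± 0.41, adjusted p = 9.02e-08). Prdm1, the factor that drives plasma cell fate and also acts in T, natural killer and myeloid cells, was at 0.409 to 12.6 (median 4.66) scaled CPM in B cell libraries and 19.6 to 58.2 (median 33.9) in monocyte libraries (log2 difference -2.94 ± 0.30, adjusted p = 1.96e-07). Xbp1, the factor of the secretory stress response, was lower in B cells as well, at 39.8 to 153 (median 104) and 164 to 489.7 (median 413) scaled CPM in B cell and monocyte libraries (log2 difference -1.93 ± 0.13). The J chain gene Jchain did not pass. Of 8 genes of V(D)J recombination and antibody diversification, only 2 passed the filter on low counts: Ung, the uracil glycosylase of class switching, at 5.84 to 23.6 (median 15.004) scaled CPM in B cell libraries and 0.997 to 6.70 (median 3.19) in monocyte libraries (log2 difference 2.05 ± 0.26), and Igll1, a surrogate light chain of precursor B cells, at 2.02 to 31.1 (median 4.50) and 0 to 2.52 (median 0.280) (log2 difference 3.20 ± 0.52). Rag1, Rag2, Dntt, Vpreb1 and Vpreb2 were among those below the filter.

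Surface and maturation genes of B cells gave 17 of 20 higher and 2 lower, 15 of them beyond 2-fold higher, with a median of 3.20. Fcer2a, the low affinity IgE receptor CD23 of mature follicular B cells, was at 631 to 1483 (median 959) scaled CPM in B cell libraries and 0 to 7.08 (median 1.90) in monocyte libraries (log2 difference 8.83 ± 0.34, adjusted p = 5.07e-13). Tnfrsf13c, the receptor for the survival factor BAFF, was at 312 to 1023 (median 639.8) scaled CPM in B cell libraries and 0.473 to 8.11 (median 1.35) in monocyte libraries (log2 difference 8.38 ± 0.34, adjusted p = 8.70e-13). Vpreb3, whose promoter is shown above, was at 183 to 478 (median 271) scaled CPM in B cell libraries and 0 to 5.31 (median 0.744) in monocyte libraries (log2 difference 7.93 ± 0.35). These 3 genes were near or at 0 in some monocyte libraries and high in every B cell library. Cd9, a tetraspanin of marginal zone B cells that platelets and myeloid cells also carry, was lower in B cells at 54.6 to 171 (median 91.5) scaled CPM, against 272 to 951 (median 545) in monocyte libraries (log2 difference -2.61 ± 0.24, adjusted p = 3.78e-08). Cd93, a marker of transitional B cells that monocytes share, was lower with a log2 difference of -1.16 ± 0.35, a call lost in the 8 female numbers alone (-0.82, adjusted p = 0.0612). Of 8 BAFF and CD40 ligands and receptors listed, 4 passed the filter on low counts. Tnfrsf13b (TACI), a receptor for BAFF, and Cd40, the receptor for CD40 ligand, were higher in B cells, with log2 differences of 2.09 ± 0.10 and 2.05 ± 0.20, while Tnfsf13b, the gene of BAFF itself, was at 0.286 to 8.65 (median 3.001) scaled CPM in B cell libraries and 9.32 to 35.9 (median 23.8) in monocyte libraries (log2 difference -3.06 ± 0.36, adjusted p = 1.15e-06).

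Transcription factors separated the lineages in both directions. Of 22 lymphoid factors, 16 were higher in B cells (15 beyond 2-fold) and 2 were lower, with a median of 2.22. Pax5, which commits precursors to the B lineage, was at 192 to 423 (median 221) scaled CPM in B cell libraries and 0 to 8.85 (median 1.18) in monocyte libraries (log2 difference 7.24 ± 0.39, adjusted p = 3.42e-11). Pou2af1 was at 232 to 703 (median 371) scaled CPM in B cell libraries and 0.491 to 11.9 (median 3.16) in monocyte libraries (log2 difference 6.69 ± 0.39), and Ebf1 at 387 to 673 (median 535) and 0.422 to 15.9 (median 1.69) (log2 difference 7.80 ± 0.45). None of the 3 overlapped between the groups. Tcf3, which encodes the E proteins E12 and E47, was present in both cell types and had a log2 difference of 2.73 ± 0.16. Bcl6, the germinal centre repressor, and Ikzf1, which lymphoid and myeloid cells share, were lower in B cells, with log2 differences of -0.56 ± 0.13 and -0.34 ± 0.08, with overlapping ranges, and Ikzf1 did not pass under upper quartile scaling (adjusted p = 0.101).

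Of 20 myeloid factors, 16 were lower in B cells (14 beyond 2-fold) and 0 were higher, with a median of -2.63. Spi1, the gene of PU.1 (ENSMUSG00000002111, chromosome 2, 91082390 to 91115756), was at 133 to 229 (median 176) scaled CPM in B cell libraries, against 776 to 1925 (median 1158) in monocyte libraries (log2 difference -2.73 ± 0.10, adjusted p = 2.29e-13). It did not overlap, and was far from 0 in B cells, which use PU.1 at a lower dose. Cebpd was at 4.83 to 13.4 (median 8.42) scaled CPM in B cell libraries and 105 to 333 (median 158) in monocyte libraries (log2 difference -4.30 ± 0.16). Cebpa and Cebpb, the other C/EBP genes of monocytes, had log2 differences of -4.76 ± 0.41 and -4.38 ± 0.35, and Id2, an inhibitor of E proteins that natural killer cells also require, of -4.14 ± 0.13. Zeb2, a repressor that monocytes need, was lower with a log2 difference of -2.35 ± 0.12. Irf8, which both B cells and monocytes need, was at 384 to 1159 (median 855) scaled CPM in B cell libraries and 259 to 1342 (median 739) in monocyte libraries, and its difference of 0.18 ± 0.14 did not pass (adjusted p = 0.271).

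**Figure D3:**
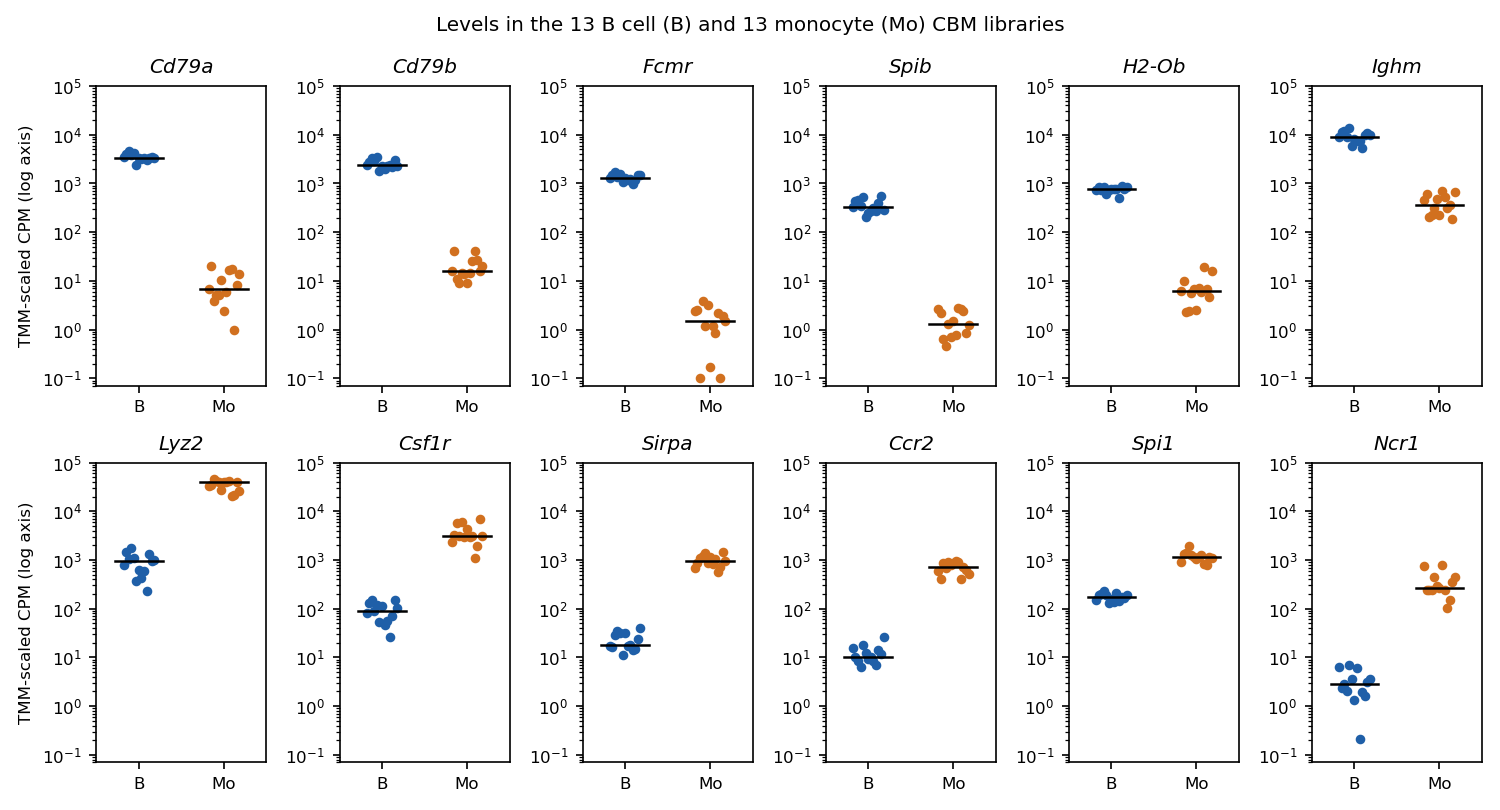
TMM-scaled CPM (log axis) of 12 genes in the 13 B cell libraries (B, left, blue) and the 13 monocyte libraries (Mo, right, orange), with the median as a line; values under 0.1 are drawn at 0.1. In each gene the groups do not overlap, and Spi1, Ighm and Lyz2 are well above 0 in both cell types.

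All 10 genes of MHC class II presentation were higher in B cells, 8 of them beyond 2-fold, with a median of 2.69. H2-Ob and H2-Oa, the chains of H2-O, a B cell brake on peptide loading, were the most separated. H2-Ob was at 503 to 893 (median 780.0) scaled CPM in B cell libraries and 2.32 to 19.5 (median 6.33) in monocyte libraries (log2 difference 6.88 ± 0.29, adjusted p = 1.46e-12). H2-Oa was at 135 to 374 (median 232) scaled CPM in B cell libraries and 1.42 to 16.2 (median 3.10) in monocyte libraries (log2 difference 6.001 ± 0.36). H2-DMb2, a chain of the peptide exchange factor, had a log2 difference of 4.41 ± 0.20, and Ciita, the master activator of the class II genes, of 3.19 ± 0.21. The classical chains were closer, with H2-Aa, H2-Ab1 and H2-Eb1 at log2 differences of 2.48 ± 0.26, 2.50 ± 0.27 and 2.83 ± 0.29. Cd74, the invariant chain, was at 18112 to 28620.5 (median 22098) scaled CPM in B cell libraries and 894 to 12922 (median 3598) in monocyte libraries (log2 difference 2.54 ± 0.27), and no monocyte library was near 0. Of the 5 dendritic cell markers tested, only Clec10a and Cd209a passed as higher in the same monocyte libraries, and their part was not tested.

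Monocyte genes were lower in B cells almost without exception. All 18 core genes, 9 of 10 classical genes and all 12 nonclassical genes passed, all of them beyond 2-fold, with medians of -5.36, -4.98 and -5.50. Csf1r, the receptor for the monocyte growth factor (ENSMUSG00000024621, chromosome 18, 61100598 to 61132149), was at 26.4 to 152 (median 89.8) scaled CPM in B cell libraries, against 1116 to 6882 (median 3079.7) in monocyte libraries (log2 difference -5.29 ± 0.15, adjusted p = 3.46e-14). Sirpa, which binds CD47 and restrains phagocytosis, was at 11.004 to 39.6 (median 17.8) scaled CPM in B cell libraries and 572 to 1433 (median 942) in monocyte libraries (log2 difference -5.45 ± 0.14, adjusted p = 1.94e-14). Clec4a1, a C-type lectin, was at 3.28 to 10.6 (median 7.05) scaled CPM in B cell libraries and 141 to 396 (median 297) in monocyte libraries (log2 difference -5.40 ± 0.14). The groups were far apart in these genes, with the highest B cell library below the lowest monocyte library. Lyz2 had a log2 difference of -5.42 ± 0.25 (adjusted p = 3.79e-12), and no B cell library was at 0.

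Among classical genes, Ccr2, the chemokine receptor that releases monocytes from the marrow, was at 6.25 to 26.1 (median 10.2) scaled CPM in B cell libraries and 400.4 to 945 (median 732) in monocyte libraries (log2 difference -5.91 ± 0.22, adjusted p = 2.77e-13). Chil3, a chitinase-like protein, was at 10.6 to 71.8 (median 35.5) scaled CPM in B cell libraries and 477 to 4781 (median 1773) in monocyte libraries (log2 difference -5.79 ± 0.20), and Hp, the haptoglobin gene, and Mgst1, a glutathione transferase, had log2 differences of -5.41 ± 0.17 and -4.37 ± 0.14. Among nonclassical genes, Cx3cr1, the fractalkine receptor, was at 1.87 to 17.9 (median 7.31) scaled CPM in B cell libraries and 89.3 to 742 (median 359.7) in monocyte libraries (log2 difference -5.74 ± 0.21). Treml4, Adgre4 and Ace, which mark patrolling monocytes, had log2 differences of -5.46 ± 0.18, -5.85 ± 0.22 and -5.52 ± 0.22. Genes listed for both monocyte kinds were thus present in the same monocyte libraries. Neutrophil and natural killer cell markers were higher in these libraries too, and their part in these levels was not tested.

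Others of the 12 genes named for the lowest p among those lower in B cells are described next. Sirpb1a, an activating relative of Sirpa, was at 1.17 to 4.22 (median 2.70) scaled CPM in B cell libraries and 50.2 to 188 (median 116) in monocyte libraries (log2 difference -5.53 ± 0.13, adjusted p = 1.65e-14). Otulinl, a relative of the linear deubiquitinase OTULIN, was at 18.1 to 38.4 (median 25.6) scaled CPM in B cell libraries and 275 to 663 (median 508) in monocyte libraries (log2 difference -4.16 ± 0.11). Pla2g7, the enzyme that breaks down platelet-activating factor, had a log2 difference of -5.21 ± 0.15, and Emb, the adhesion protein embigin, of -4.53 ± 0.13. Ncr1, the natural killer receptor NKp46, was also among these 12 genes, at 0.214 to 7.05 (median 2.86) scaled CPM in B cell libraries and 106 to 770.5 (median 263) in monocyte libraries (log2 difference -6.77 ± 0.20, adjusted p = 4.93e-14). Monocytes are not known for Ncr1, and the summed natural killer markers are given above. The cytotoxic genes Gzma, Gzmb and Prf1 moved with it, at log2 differences of -6.98 ± 0.24, -6.45 ± 0.22 and -6.12 ± 0.18. Counts of Sirpb1a and other members of close gene families may be shared with their copies.

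Receptors for microbial products were mostly lower in B cells: 16 of 21 tested were lower (14 beyond 2-fold), 2 were higher, and the median was -2.49. Clec7a, the receptor dectin-1 for fungal glucan, was at 6.84 to 26.4 (median 12.5) scaled CPM in B cell libraries and 269 to 720.3 (median 546) in monocyte libraries (log2 difference -5.36 ± 0.20, adjusted p = 2.77e-13). Tlr13, a sensor of bacterial ribosomal RNA whose promoter is shown above, was at 1.58 to 18.2 (median 11.1) scaled CPM in B cell libraries and 146 to 658 (median 429) in monocyte libraries (log2 difference -5.38 ± 0.22). Ticam2, an adaptor of TLR4, and Nod2, a sensor of peptidoglycan, had log2 differences of -3.71 ± 0.16 and -2.64 ± 0.12. None of these 4 overlapped between the groups, and of the 21 tested 11 did not overlap (13.9% over all genes tested). Tlr1, a partner of TLR2, was higher in B cells in 12 of 13 pairs, at 42.9 to 107 (median 89.2) scaled CPM in B cell libraries and 8.59 to 102 (median 29.4) in monocyte libraries (log2 difference 1.39 ± 0.24, adjusted p = 6.82e-05), and the weakly expressed Tlr12 was higher with a log2 difference of 1.22 ± 0.39. Tlr9, the DNA sensor, did not pass (log2 difference 0.94 ± 0.46, adjusted p = 0.0903).

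Fc receptors went both ways, with 6 of 11 tested higher and 5 lower in B cells, against 28.9% and 29% over all genes. The activating IgG receptors Fcgr3 and Fcgr4 and their signalling chain Fcer1g were lower in B cells, with log2 differences of -5.22 ± 0.18, -5.63 ± 0.28 and -5.52 ± 0.21. Fcer1g was at 17.3 to 97.6 (median 44.6) scaled CPM in B cell libraries and 1203 to 2833 (median 1717) in monocyte libraries. Fcmr, Fcer2a and the Fc receptor-like genes were higher in B cells, as was the inhibitory IgG receptor Fcgr2b, at 78.01 to 130.2 (median 107) scaled CPM in B cell libraries and 14.7 to 118 (median 62.96) in monocyte libraries (log2 difference 0.74 ± 0.19, adjusted p = 0.00295), with overlapping ranges. Inhibitory receptors of myeloid cells were lower in B cells in 11 of 12, with Clec12a at 12.97 to 24.5 (median 19.2) scaled CPM in B cell libraries and 254 to 455 (median 318) in monocyte libraries (log2 difference -4.15 ± 0.14). Cd300a and Lilrb4a of the same list had log2 differences of -5.37 ± 0.21 and -4.96 ± 0.24, and Csk, the kinase that holds Src family kinases in check, was higher in B cells, with a log2 difference of 0.95 ± 0.11.

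The machinery of phagocytes was lower in B cells. Of 7 oxidase and nitric oxide genes tested, 6 were lower and 1 was higher. Cybb, the catalytic chain of the oxidase, was at 199 to 451 (median 363) scaled CPM in B cell libraries and 1579.7 to 4381 (median 2538) in monocyte libraries (log2 difference -2.96 ± 0.09, adjusted p = 7.49e-14), and Cyba, its partner chain, had a log2 difference of -1.64 ± 0.10. Hvcn1, the proton channel that sustains the oxidase and also modulates B cell receptor signalling, was the exception, at 476 to 1412 (median 1067) scaled CPM in B cell libraries and 9.80 to 51.05 (median 31.96) in monocyte libraries (log2 difference 5.06 ± 0.23, adjusted p = 3.92e-12). Lysosomal genes were lower in 21 of 25 and higher in 1, with a median of -2.27. Ctsb and Ctsd, lysosomal proteases, were lower with log2 differences of -3.89 ± 0.15 and -3.47 ± 0.14, and Hexa and Lipa, which break down gangliosides and cholesteryl esters, with log2 differences of -2.67 ± 0.12 and -2.61 ± 0.12. Ctso, a less studied cathepsin, was higher in B cells, with a log2 difference of 1.04 ± 0.15, in 13 of 13 pairs.

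Secreted and inflammatory products followed the same direction. Of 12 inflammasome and interleukin 1 genes tested, 11 were lower in B cells, with Il1b at 19.3 to 261 (median 47.6) scaled CPM in B cell libraries and 749.9 to 4067 (median 1734) in monocyte libraries (log2 difference -4.89 ± 0.29, adjusted p = 1.26e-10) and the antagonist Il1rn lower with a log2 difference of -4.25 ± 0.24. Casp1, which cleaves interleukin 1, and Gsdmd, the pore protein, were lower with log2 differences of -1.39 ± 0.09 and -1.42 ± 0.09, with overlapping ranges. Of 12 S100, annexin and galectin genes, 11 were lower, with a median of -4.75. Anxa1, which restrains inflammation, was at 27.5 to 189 (median 49.5) scaled CPM in B cell libraries and 644 to 6773 (median 1273) in monocyte libraries (log2 difference -4.80 ± 0.13, adjusted p = 3.46e-14), and Anxa2, Anxa5 and S100a6 were lower with log2 differences of -4.83 ± 0.15, -3.17 ± 0.11 and -5.08 ± 0.21. Of 8 complement genes tested, 6 were lower, among them C3 (log2 difference -5.35 ± 0.21) and the receptor C5ar1 (log2 difference -4.54 ± 0.26). Of 9 eicosanoid genes tested, 7 were lower, and Alox5ap, the partner protein of 5-lipoxygenase, was at 11.6 to 51.4 (median 17.03) scaled CPM in B cell libraries and 554 to 1419.6 (median 797) in monocyte libraries (log2 difference -5.47 ± 0.18). Anxa1, C5ar1 and S100 genes are also genes of neutrophils, whose markers were higher in the same monocyte libraries, and that part was not tested.

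Receptors for trafficking signals went both ways. Of 17 chemokine and sphingosine phosphate receptors tested, 9 were higher in B cells and 6 were lower, against 28.9% and 29% over all genes. Ccr7, which leads lymphocytes into lymph nodes, was at 752 to 1426 (median 1043) scaled CPM in B cell libraries and 1.47 to 43.3 (median 4.96) in monocyte libraries (log2 difference 6.98 ± 0.43, adjusted p = 1.84e-10). Cxcr5, which leads B cells into follicles, was at 147 to 302 (median 218) scaled CPM in B cell libraries and 0.973 to 23.6 (median 2.88) in monocyte libraries (log2 difference 6.002 ± 0.31), and S1pr1, the exit receptor, had a log2 difference of 5.28 ± 0.32. On the other side stood Ccr2, Cx3cr1, Ccr1 (log2 difference -4.34 ± 0.21) and S1pr5, at 1.18 to 11.04 (median 5.89) scaled CPM in B cell libraries and 92.6 to 602 (median 391) in monocyte libraries (log2 difference -5.92 ± 0.24). S1pr5 is used by nonclassical monocytes and by natural killer cells, so its level cannot be assigned to one of them here. Of 16 integrins and adhesion genes, 11 were lower in B cells and 3 were higher. Itgb2, the common chain of leukocyte integrins, was at 91.4 to 299 (median 241) scaled CPM in B cell libraries and 950.5 to 3349 (median 2626) in monocyte libraries (log2 difference -3.45 ± 0.10, adjusted p = 4.93e-14), and Itgal, Cd44 and Selplg were lower with log2 differences of -3.19 ± 0.11, -3.35 ± 0.11 and -3.26 ± 0.12. Icam2 and Pecam1, adhesion proteins of lymphocytes and endothelium, were higher in B cells, with log2 differences of 1.79 ± 0.14 and 1.97 ± 0.26.

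Cytokine receptors were lower in B cells in 18 of 24 and higher in 4. Tnfrsf1b, the second TNF receptor, was at 14.97 to 77.99 (median 58.04) scaled CPM in B cell libraries and 575 to 2181 (median 1606) in monocyte libraries (log2 difference -4.79 ± 0.13, adjusted p = 1.94e-14). Il6ra, the interleukin 6 receptor, was at 8.87 to 30.99 (median 20.3) scaled CPM in B cell libraries and 199 to 535 (median 282) in monocyte libraries (log2 difference -4.02 ± 0.12), and Tnfrsf1a and Csf2rb, the common chain for GM-CSF, had log2 differences of -5.27 ± 0.16 and -4.42 ± 0.18. None of these 4 overlapped, and of the 24 tested 14 did not overlap (13.9% over all genes tested). Il21r, a receptor for T cell help, was at 57.1 to 352 (median 217) scaled CPM in B cell libraries and 0 to 107 (median 20.4) in monocyte libraries (log2 difference 3.09 ± 0.41, adjusted p = 4.64e-06), and Il4ra and Tgfbr2 were higher in B cells, with log2 differences of 0.88 ± 0.19 and 0.99 ± 0.12.

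Metabolic genes were lower in B cells more often than higher. Of 19 glycolysis genes, 16 were lower in B cells and 0 were higher, with a median of -1.41. Hk3, the hexokinase of myeloid cells, was at 2.14 to 22.8 (median 5.11) scaled CPM in B cell libraries and 64.6 to 719.6 (median 229) in monocyte libraries (log2 difference -5.31 ± 0.24, adjusted p = 3.21e-12), and Hk2, Pkm and Ldhb were lower with log2 differences of -3.04 ± 0.20, -2.07 ± 0.15 and -3.88 ± 0.30. Of 7 pentose phosphate genes, 5 were lower, among them Taldo1 (log2 difference -2.31 ± 0.10) and G6pdx (log2 difference -2.97 ± 0.13), the source of NADPH for the oxidase, while Pgls and Rpia were higher with log2 differences of 0.96 ± 0.10 and 1.56 ± 0.28. Iron and haem genes were lower in 8 of 11 tested and higher in 2. Slc11a1, the phagosomal metal transporter NRAMP1, was at 5.11 to 24.4 (median 17.6) scaled CPM in B cell libraries and 294 to 929.5 (median 649) in monocyte libraries (log2 difference -5.27 ± 0.17), Hfe and the ferritin gene Ftl1 were lower with log2 differences of -5.58 ± 0.22 and -2.16 ± 0.09, and Tfrc, the transferrin receptor, was higher in B cells, with a log2 difference of 1.72 ± 0.18. Lipid handling genes were lower in 11 of 12, for example Plin2, Nr1h3, Msr1 and Pparg (log2 differences -3.42 ± 0.17, -4.96 ± 0.26, -5.15 ± 0.33 and -5.33 ± 0.36). Abca1, the cholesterol exporter, was the one higher in B cells, at 51.2 to 169 (median 102) scaled CPM in B cell libraries and 3.19 to 34.5 (median 15.6) in monocyte libraries (log2 difference 2.97 ± 0.32, adjusted p = 2.81e-07).

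Cytosolic ribosomal protein genes shifted slightly upward in B cells. Of 76 tested, 36 were higher, 1 was lower and 39 did not pass, with a median of 0.37 against 0.11 for all genes. Rpl12, a protein of the large subunit, was at 160.3 to 412 (median 180.1) scaled CPM in B cell libraries and 50.5 to 309 (median 67.1) in monocyte libraries (log2 difference 1.45 ± 0.20, adjusted p = 5.73e-06), and Rps20, of the small subunit, had a log2 difference of 1.14 ± 0.20. Rpl10 was the gene that was lower in B cells (log2 difference -0.55 ± 0.10, adjusted p = 0.000115). The count depended on single numbers and on scaling: 66 genes were higher without CBM11, 58 under upper quartile scaling and 0 in the 5 male numbers alone. Ribosomal protein genes have many processed pseudogenes, so their counts are uncertain one by one.

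Genes of interferon responses and of early activation were lower in B cells more often than higher, and those of the cell cycle depended on the numbers used. Of 19 cell cycle genes, 12 were lower and 2 higher, with a median of -1.06, but in the 5 male numbers alone 1 was lower and 2 higher, with a median of -0.26. The protein of Mki67 marks dividing cells, and the gene was at 2.50 to 16.4 (median 7.24) scaled CPM in B cell libraries and 16.4 to 59.7 (median 29.6) in monocyte libraries (log2 difference -2.15 ± 0.26, adjusted p = 1.52e-06). Rrm2, Cdk1 and Birc5 were lower with log2 differences of -1.78 ± 0.30, -2.05 ± 0.36 and -2.05 ± 0.38, calls that did not pass in the 5 male numbers alone, and the replication genes Mcm2 and Mcm7 were higher with log2 differences of 0.90 ± 0.22 and 0.57 ± 0.14. Of 19 interferon-stimulated genes, 17 were lower and 0 higher, with a median of -2.17. Irf7, the factor that amplifies the response, was at 33.9 to 149 (median 51.4) scaled CPM in B cell libraries and 109.9 to 774 (median 348) in monocyte libraries (log2 difference -2.57 ± 0.17, adjusted p = 5.71e-10), and Oas1a, Oasl2 and Zbp1 were lower with log2 differences of -3.92 ± 0.19, -3.66 ± 0.20 and -2.17 ± 0.13. In Oasl2 the groups overlapped, since the B cell library of CBM4 (83.6 scaled CPM) exceeded the monocyte libraries of CBM10 and CBM11 (63.3 and 65.3); the monocyte library of CBM4 was the highest (1799). Of 17 immediate early genes, 9 were lower and 2 higher. Fos was at 48.6 to 258 (median 138) scaled CPM in B cell libraries and 612 to 3493 (median 1764) in monocyte libraries (log2 difference -3.82 ± 0.14, adjusted p = 3.32e-13), Atf3, Zfp36 and Klf6 were lower with log2 differences of -4.17 ± 0.32, -1.67 ± 0.11 and -1.58 ± 0.11, and Egr3 was higher in B cells, with a log2 difference of 3.96 ± 0.47.

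**Figure D4:**
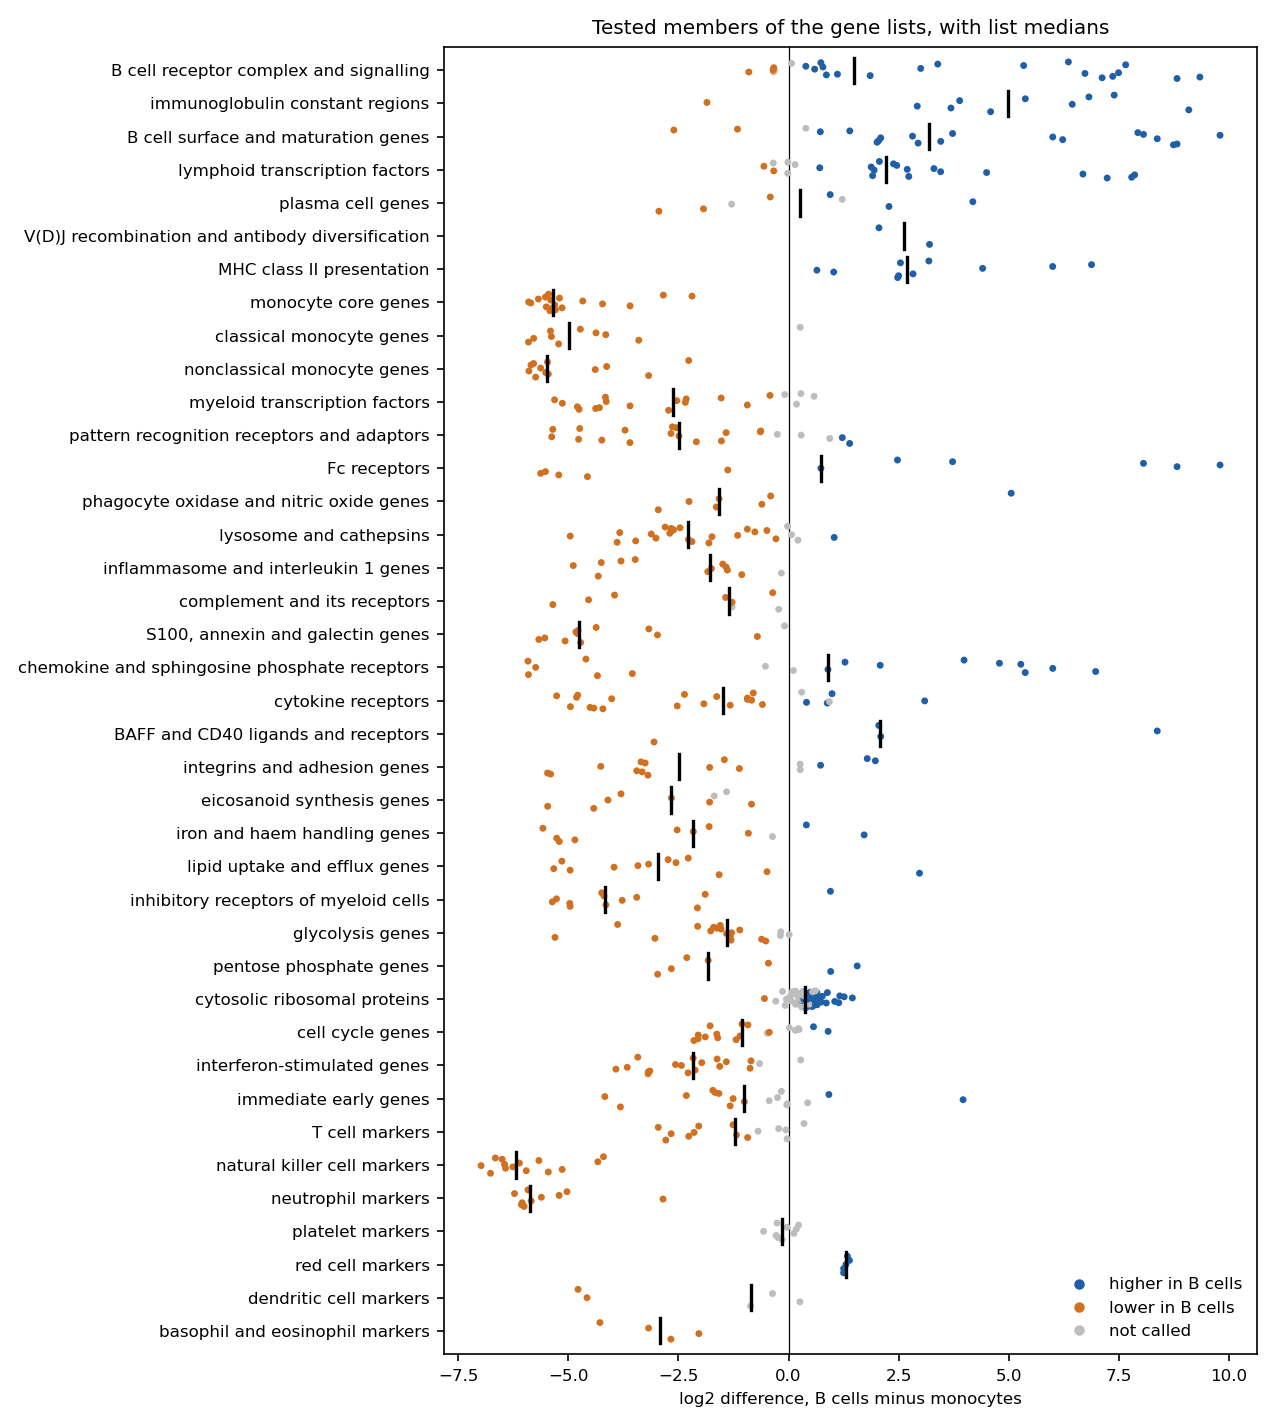
Log2 difference (B cells minus monocytes) of the tested members of 39 gene lists, 1 row a list, with the list median as a black bar. Blue members passed as higher in B cells, orange as lower, and grey did not pass; the list medians reach 4.99 for immunoglobulin constant regions on the right and -6.19 for natural killer cell markers on the left.

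Some abundant genes were close to equal. The 5 most abundant genes whose 95% interval lay within 0.5 either side of 0 were Ly6e, Ptpn6, Eef1a1, Junb and Unc93b1. Ly6e, a surface protein of many lymphoid and myeloid cells, was at 2562 to 3911 (median 3063) scaled CPM in B cell libraries and 1933 to 3866 (median 3377) in monocyte libraries (log2 difference 0.03 ± 0.10, 95% interval -0.19 to 0.25). Ptpn6, the phosphatase SHP-1 that acts behind inhibitory receptors of both lineages, was at 906 to 2919 (median 2069) scaled CPM in B cell libraries and 684 to 3219.9 (median 2094) in monocyte libraries (log2 difference 0.07 ± 0.14, 95% interval -0.22 to 0.36). The intervals were -0.24 to 0.19 for Junb, a part of AP-1, and -0.11 to 0.39 for Unc93b1, which carries nucleic acid sensing receptors to endosomes. The elongation factor Eef1a1 passed with a small difference (log2 difference 0.26 ± 0.10, adjusted p = 0.0367). The groups overlapped in all 5.

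The dependence of the contrast on the labelled sex was asked with an interaction term over 8 female and 5 male numbers. A positive term means a higher log2 difference (B cells minus monocytes) in male numbers. In edgeR 0 of 14095 genes (0%) passed, with a lowest adjusted p of 0.534 and 1219 genes at an unadjusted p under 0.05. DESeq2 called 25 genes and edgeR without a filter on low counts 44. Pde4a, a cAMP phosphodiesterase, and Suv39h1, a histone methyltransferase encoded on the X chromosome, had the lowest p in each direction, with interaction terms of -1.61 ± 0.31 and 1.58 ± 0.33 on the log2 scale (unadjusted p = 9.31e-05 and 0.000183, adjusted p = 0.534 and 0.534). Tagln2 and Pfkfb4 had positive terms of 0.80 ± 0.18 and 0.85 ± 0.21, and Msi2, Tia1 and Spag9 negative ones of -2.15 ± 0.47, -0.81 ± 0.18 and -1.09 ± 0.26, none of which passed after adjustment. Xist, the RNA of the inactive X chromosome (chromosome X, 103460366 to 103483254), was the only sex-linked gene of 5 that passed the filter and was higher in B cells, with a log2 difference of 1.11 ± 0.24 (adjusted p = 0.000728). Before TMM scaling Xist was at 105.7 to 289 CPM in B cell and 26.1 to 104.2 CPM in monocyte libraries of female numbers. In male numbers it was at 0.164 to 7.81 and 0 to 5.70 CPM, so the difference is one of the female numbers. Without strand Xist cannot be told apart from its antisense partner Tsix.

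The same contrast was made in PBS, in samples that share no library with CBM and belong to another batch. The PBS monocyte sample JS17 went against its label, with Lyz2 at 172 CPM and Cd3e, the T cell gene, at 865 CPM, and it was kept in the values that follow unless stated. The sex genes went against the labelled sex in 3 of 8 PBS B cell samples and 2 of 8 PBS monocyte samples, and the PBS fit holds a sex term; without that term 2998 genes were higher and 3248 lower. In PBS 3032 of 12318 genes (24.6%) were higher in B cells and 3263 (26.5%) lower; without JS17 the counts were 3867 and 3633 of 12539. Of the 1111 genes beyond 2-fold higher in B cells of CBM, 1005 were tested in PBS, 990 (98.5%) had the same direction and 838 (83.4%) passed in it. Of the 1851 lower, 1648 were tested, 1643 (99.7%) had the same direction and 1567 (95.1%) passed. No gene of these 2 sets beyond 2-fold passed in the opposite direction. Over all genes called in CBM, whatever the size of the difference, fewer passed in PBS: 2432 of the 3787 tested that were higher in B cells (64.2%) passed in the same direction and 10 in the opposite one, and 2768 of the 3776 that were lower (73.3%) passed in the same direction and 7 in the opposite one. For the sets beyond 2-fold without JS17, 927 of 1032 (89.8%) and 1683 of 1728 (97.4%) passed in the same direction. All 24 genes named for the lowest p in CBM passed in the same direction in PBS, Spib with a log2 difference of 6.002 ± 0.46 (adjusted p = 5.21e-08) and Csf1r with one of -5.20 ± 0.66 (adjusted p = 9.62e-06).

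Over the genes beyond 2-fold in CBM, the median log2 difference of those higher in B cells was 2.39 in CBM and 1.85 in PBS (2.00 without JS17), and that of those lower was -2.46 and -2.41 (-2.51). The log2 difference of Fcmr was 9.80 in CBM and 6.66 in PBS, and that of Cd79a was 8.83 in CBM and 6.27 in PBS; without JS17 the PBS values were 6.64 and 6.19. Of the PBS monocyte samples, JS3 had Cd79a at 155 CPM and JS14 at 127 CPM, and the other 6 had it at 8.44 to 44.4 CPM, against 0.762 to 19.01 CPM in the 13 CBM monocyte libraries. JS3 and JS14 lay above every CBM monocyte library, while the range of the other 6 overlapped with theirs. The part of these transcripts in the smaller PBS differences was not tested. All 10 class II genes, 18 of 24 genes of the B cell receptor list (17 higher in B cells, and Bcl10 lower), all 18 monocyte core genes and all 14 natural killer cell markers passed in PBS in the direction seen in CBM. A pair of listed genes passed in opposite directions. Itga6, the integrin alpha 6 chain of laminin receptors, had a log2 difference of -1.01 ± 0.30 (adjusted p = 0.00976) in PBS, or -0.84 (adjusted p = 0.0191) without JS17, and 0.73 ± 0.27 (adjusted p = 0.0308) in CBM. Cd5, a surface receptor of T cells and of some B cells, had one of -2.32 ± 0.92 (adjusted p = 0.0446) in PBS, or -0.77 (adjusted p = 0.244) without JS17, and 1.39 ± 0.56 (adjusted p = 0.0429) in CBM. All 9 platelet markers were lower in B cells in PBS, with Itga2b, the platelet integrin, at -2.15 ± 0.56 (adjusted p = 0.00418) in PBS and -0.28 ± 0.24 (adjusted p = 0.336) in CBM. Lyn, lower in B cells of CBM, had a log2 difference of -0.54 (adjusted p = 0.297) in PBS with JS17 and was lower there without it (-0.72, adjusted p = 0.000367). Plcg2, also lower in CBM, did not pass in PBS with JS17 (0.48, adjusted p = 0.315) or without it (0.30, adjusted p = 0.123). Whether any of these values differ between CBM and PBS was not tested, and treatment label and batch cannot be told apart there.

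**Figure D5:**
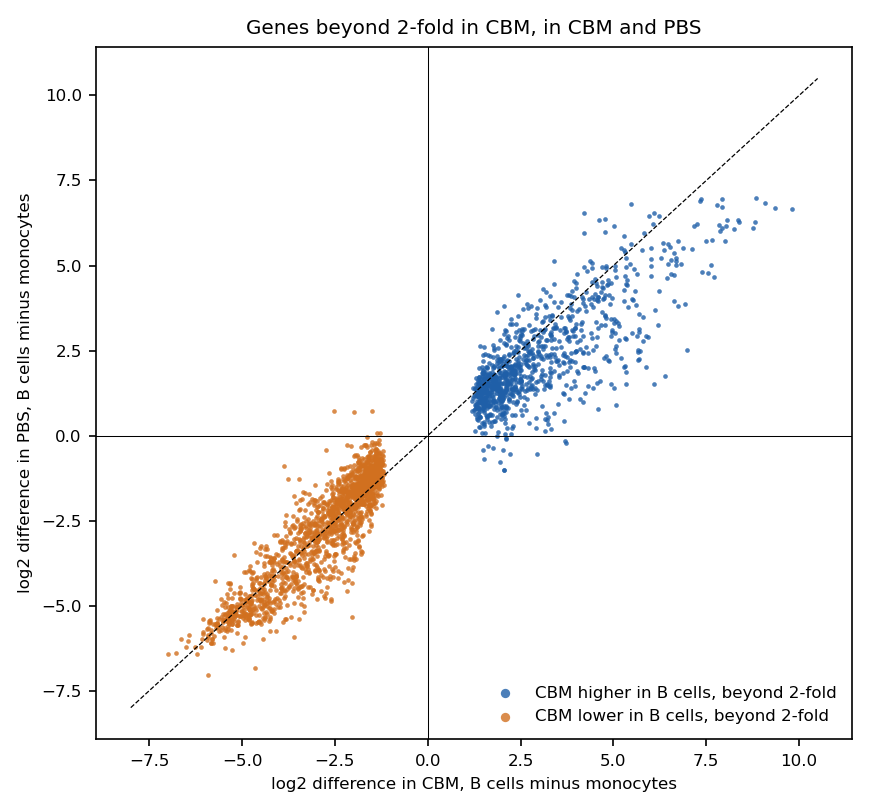
Log2 differences (B cells minus monocytes) in CBM (x axis) and in PBS (y axis) for the genes beyond 2-fold in CBM that were tested in both, 1005 higher in B cells (blue) and 1648 lower (orange). The dashed line marks equal differences; 990 of the blue and 1643 of the orange genes lie on the same side of 0 in both.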

How the data were processed

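Per the labels' protocols, RNA of sorted blood cells was sequenced, and the authors deposited 1 table of read counts per gene, 53465 genes by 124 libraries. The submitters' processing notes name HISAT2 2.1.0, HTSeq 0.11.2 and GRCm38, and no strand setting is stated. A SMART-Seq kit for low RNA input made the cDNA, per the labels. Of the gene IDs, 99.6% were in GENCODE M21, and 26 symbols stored as dates were recovered through it.

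Counts were fitted with edgeR 4.0.16 in R 4.3.3 (quasi-likelihood test, CBM number as block, scaling by TMM, low counts removed by filterByExpr at a minimum of 10), and differences beyond 2-fold with its test against a log2 threshold of 1. DESeq2 1.42.0 and limma 3.58.1 (voom) were alternatives, with other scalings, filters, 1 sex alone and each number left out. Repeat libraries of a PBS sample were summed. Summary measures used exact paired permutation tests (8192 sign changes). On simulated data with the totals of these libraries and 200 of 14035 genes changed, 93% were recovered at 2-fold and 100% at 4-fold, with 8 false calls. The changed genes were well counted, went equally often in both directions, and all genes had the same dispersion. In the real contrast 8173 of 14095 genes were called, so the simulation checks the procedure and does not give error rates for these data.

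Members and gene lists were chosen with earlier results of these data known. Named genes are the 12 lowest p in each direction, the 4 lowest p of each list and up to 3 members on its other side, the 5 most abundant genes with a narrow interval around 0, and the lowest p of the interaction. Ranks over all genes leave out predicted genes, pseudogenes, immunoglobulin and T cell receptor gene segments and second IDs of a symbol, which could still be named from a list. Outside this rule, these list members were named after their values were seen: Lyz2, Blnk, Btk, Syk, Igkc, Ebf1, Cebpa, Cebpb, Irf8, H2-Aa, H2-Ab1, H2-Eb1, Cd74, Fcgr2b, Tlr9, Ccr7, Cxcr5, S1pr1, Cd3e, Cd3g, Cd5, Jchain, Klre1, Fasl, Ly6g and Epx, and Rag1, Rag2, Dntt, Vpreb1 and Vpreb2 as genes below the filter. Counts of near-identical genes, and of genes with an antisense partner, are uncertain. Some genes that the naming rule picks are not reported here.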

Additional observations from a re-analysis of the deposited data

Results flagged for a closer look

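The PBS monocyte sample with JS number 17 had Cd3e at 865 CPM, farther from the other 7 PBS monocyte samples than their spread allows by Dixon's criterion. Its Lyz2 level was 172 CPM, and its T cell score (10.44, a mean of log2 levels over marker genes) was above its monocyte score (4.344). Chance alone sets about 1 in 20 groups apart in this way, and 6 combinations of group and marker were examined. The PBS results are given with and without this sample, and the CBM results do not use it.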

How the results depend on the processing

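The counts of genes higher and lower in B cells stayed within 1.5 times those reported under DESeq2 (5082 and 4051), limma voom (4129 and 4440), other scalings and filters, and in the 8 female numbers alone. In the 5 male numbers alone they were 1173 and 2077, and 420 and 1100 beyond 2-fold, from fewer samples. Leaving out 1 number at a time gave 3748 to 4371 higher and 3928 to 4540 lower, and beyond 2-fold 1014 to 1202 and 1759 to 1980. Without the replicate block the counts were 3721 and 4089, and beyond 2-fold 965 and 1837. Deviations of libraries that share a CBM number correlated at -0.126 to 0.648 (median 0.171, against -0.0155 for other numbers), above 0.1 in 9 of 13 pairs, and 5 of 13 B cell libraries were closest to the monocyte library of their own number. The labels do not state a pairing, and the source of these correlations was not tested. Libraries of a number also share the labelled sex and can be alike in total counts. Number 10 had the highest correlation (0.648) with 2177481 and 2104075 counts, while number 12 was at 0.155 with 6106560 and 5789144. Ribosomal protein genes higher in B cells numbered 22 without the block and 24 to 66 when 1 number was left out. The interaction gave 25 genes in DESeq2 and 44 without a filter on low counts, against 0; the cause was not tested. The mitochondrial difference was 0.586 to 0.968 percentage points when 1 number was left out, and passed only without number 11. Of 2132 values of named genes under alternatives, 2079 kept their direction and call, 40 no longer passed, 3 newly passed and 10 changed sign, none of them past the threshold. Junb had log2 differences of 0.047 under DESeq2 and under its size factors, 0.046 in male numbers, 0.16 under upper quartile scaling and 0.026 under the stricter filter. Without a filter Ly6e was at -0.043 and Ptpn6 at -0.0028. Ptpn6 was at -0.075 in female numbers and -0.012 without number 11, and Clec1b was at 0.068 in female numbers. Totals of 2041845 to 7327183 counts limit what is seen for weakly expressed genes such as Rag1.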

Other observations

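The summed level of other-cell markers was also followed across the 13 CBM numbers, with the monocyte library of a number set against its B cell library (log2 of summed scaled CPM, 10 lists). Neutrophil markers were related (Pearson r = 0.884, adjusted permutation p = 0.0018; Spearman rho = 0.83, adjusted p = 0.0076 by permutation), with r = 0.754 without numbers 2 and 4 and r = 0.892 in the 8 female numbers. Natural killer cell markers were related as well (r = 0.778, adjusted permutation p = 0.0119; rho = 0.753, adjusted p = 0.0232 by permutation), with r = 0.574 without numbers 1 and 8 and r = 0.806 in the female numbers. T cell markers gave r = 0.67 (adjusted permutation p = 0.0406), which was 0.421 without numbers 1 and 13, and their rho did not pass (adjusted p = 0.0954 by permutation). The other 7 lists did not pass, and their r ran from 0.111 for platelet markers to 0.678 for monocyte core genes (adjusted permutation p = 0.0635). The r of monocyte core genes was thus no lower than that of T cell markers. The 5 male numbers are too few for a correlation of their own.

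Set against the monocyte library of the same number, a B cell library held a median of 4.1% of the summed level of monocyte core genes (2.56 to 6.02% over the 13 numbers), 1.93% of neutrophil markers (1.03 to 4.41%) and 1.15% of natural killer cell markers (0.727 to 1.91%). For T cell markers the median was 45% (14 to 54.9%), for classical monocyte genes 14.9% (8.5 to 26.6%), for nonclassical monocyte genes 4.98% (3.21 to 8.19%), for dendritic cell markers 20.7% (2.88 to 49%) and for basophil and eosinophil markers 10% (1.01 to 49.2%). The classical sum includes 1 gene that did not pass, with a log2 difference of 0.26. By gene, the median log2 difference was -4.98 for the classical list and -5.50 for the nonclassical list. Platelet markers in B cell libraries were at a median of 97.7% of the monocyte level (7.93 to 311%) and red cell markers at 194% (52.7 to 757%).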
